A study of Mus musculus with 2 samples.

Results

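The interferon response genes described here are 40 named mouse genes, chosen by name from a list of interferon-stimulated genes. Earlier results of these data were known when the genes were chosen. All 40 are rows of the deposited count matrix, which holds 17829 genes. They were followed in colonic epithelial cells of C57BL/6 mice, in 1 library of genotype Mettl14 WT and 1 library of genotype Mettl14 KO. Live cells positive for EpCAM, a surface protein of epithelia, were collected by flow sorting, and libraries were made with the 10x Genomics 3' RNA protocol, in which each captured transcript carries a molecular tag (unique molecular identifier, UMI) and the tags are counted. The series text gives 2 weeks without saying of what. The labels do not state the age, the number of animals per library, the deleted part of Mettl14, or the promoter and cell type of any Cre. The comparison addresses which of these genes differ between epithelial cells of the Mettl14 WT and Mettl14 KO genotypes. Mettl14 encodes a partner of METTL3 in the methyltransferase that places N6-methyladenosine on messenger RNA. With 1 library per genotype there is no replicate, so no test was made and every interval below is a 95% interval for counting error only.

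Interferons are secreted proteins that bind receptors on the cell surface and, through Janus kinases and STAT proteins, switch on a large set of antiviral genes. Type I and type III interferons act mainly through a STAT complex that contains STAT2 and IRF9 and binds the interferon-stimulated response element (ISRE), and type II interferon acts mainly through the gamma-activated site (GAS). Epithelial cells of the gut are known to respond strongly to type III interferon, and the products of these genes bind foreign RNA, conjugate the ubiquitin-like protein ISG15, restrict virus entry and release, or load antigen on MHC molecules.

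The promoters of the members are shown first because they hold the sequence that the pathway's own factors bind. The letters GAAANNGAAA, the core of the ISRE, were searched on both strands in the 250 bases before each RefSeq start (GRCm38.p6), where 30 of the 40 members had an entry. The letters were found in 16 of the 30 members (53.3%) and in 3.46% of 27025 genes with an entry. The GAS letters TTCNNNGAA were found in 9 of the 30 members (30%) and in 8.13% of genes, and the same bases can count for both motifs. Of the 19 matched members that were higher in the KO library, 12 held the ISRE letters, against 4 of the 10 that were neither higher nor lower. The 5 members below had the highest lower bound of the KO over WT ratio among those that hold the letters, and Ifi44 had the highest among those that do not. Each stretch is 150 bases, printed 5′ to 3′ on the gene's strand and ending before the annotated gene, with the ISRE letters of either strand in capitals.
Isg15 (chr4:156200819-156200968, minus strand): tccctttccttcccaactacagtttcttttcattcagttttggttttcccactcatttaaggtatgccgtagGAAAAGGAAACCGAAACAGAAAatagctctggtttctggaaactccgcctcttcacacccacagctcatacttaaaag
Ifit1bl1 (chr19:34601969-34602118, minus strand): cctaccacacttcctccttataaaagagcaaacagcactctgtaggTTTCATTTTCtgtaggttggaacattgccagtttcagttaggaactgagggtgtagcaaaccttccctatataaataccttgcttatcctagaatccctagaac
Bst2 (chr8:71537473-71537622, minus strand): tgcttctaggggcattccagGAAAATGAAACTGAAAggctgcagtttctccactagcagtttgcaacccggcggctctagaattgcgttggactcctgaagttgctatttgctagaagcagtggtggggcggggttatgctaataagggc
Gbp3 (chr3:142559876-142560025, plus strand): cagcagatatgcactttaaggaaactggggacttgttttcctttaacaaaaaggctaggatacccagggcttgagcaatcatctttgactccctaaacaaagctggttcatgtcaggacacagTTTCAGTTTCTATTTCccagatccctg
Ifit1 (chr19:34640721-34640870, plus strand): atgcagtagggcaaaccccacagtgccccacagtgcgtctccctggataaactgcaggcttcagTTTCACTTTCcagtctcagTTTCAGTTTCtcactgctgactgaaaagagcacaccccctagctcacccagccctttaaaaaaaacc
Ifi44 (chr3:151749961-151750110, minus strand): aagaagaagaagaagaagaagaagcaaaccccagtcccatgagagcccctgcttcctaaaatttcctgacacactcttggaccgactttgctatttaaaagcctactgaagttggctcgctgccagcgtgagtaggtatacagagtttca
In Isg15 the letters occur 3 times in overlapping register, and in Bst2 and Gbp3 2 times. The Ifit1 stretch holds 2 separate copies and the Ifit1bl1 stretch 1. A match is a description of the letters and not a bound site.

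The WT library held 4210 cells with a median of 12094 UMIs and the KO library 3653 cells with a median of 9119 UMIs, and 2 cell barcodes occurred in both. Both libraries held female and male cells, told by Xist and Y-linked UMIs, so each came from more than 1 animal. Mettl14 itself had 632 UMIs in WT (10.5 counts per 1000000 UMIs, CPM) and 201 in KO (5.34 CPM), a log2 ratio of −0.97 (−1.21 to −0.74). UMIs from the 3' end do not check a deletion that lies elsewhere in the gene. The authors' cluster table divides the cells into 7 clusters, of which 6 held at least 50 cells in each library and were compared. From marker lists, clusters 1 and 2 were goblet-like, cluster 3 was like cycling cells, cluster 4 colonocyte-like and cluster 5 enteroendocrine-like. Cluster 0 stayed unnamed, since pancreatic enzyme genes led it with stem cell markers next. This enzyme signal came almost wholly from WT cells. The listed enzyme genes summed to 6905 CPM among WT cells of cluster 0 and to 2.68 CPM among its KO cells. Over all clusters, 33 WT cells and 0 KO cells were classed as enzyme-rich. Cluster 6 held neutrophil and stromal genes with 31 KO cells.

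Summed over all cells, the 40 members made up 495.8 CPM in the WT library and 950.2 CPM in the KO library. A gene was called higher or lower where the libraries differed at least 1.5-fold and the interval of the ratio excluded equal levels, and it counted as measured from 50 UMIs in the libraries together. Of 39 measured members, 26 were higher in the KO library, against 16.7% of 13334 measured genes. Ifit2 alone was lower, against 16.2% of measured genes, and 12 members were neither. The median log2 ratio was 0.78 over the measured members and −0.04 over all measured genes. Gbp6, a guanylate-binding protein, fell under the count limit with 15 UMIs in WT and 30 in KO. In sums over a library, more cells with a transcript and more transcripts per cell cannot be told apart.

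**Figure D1:**
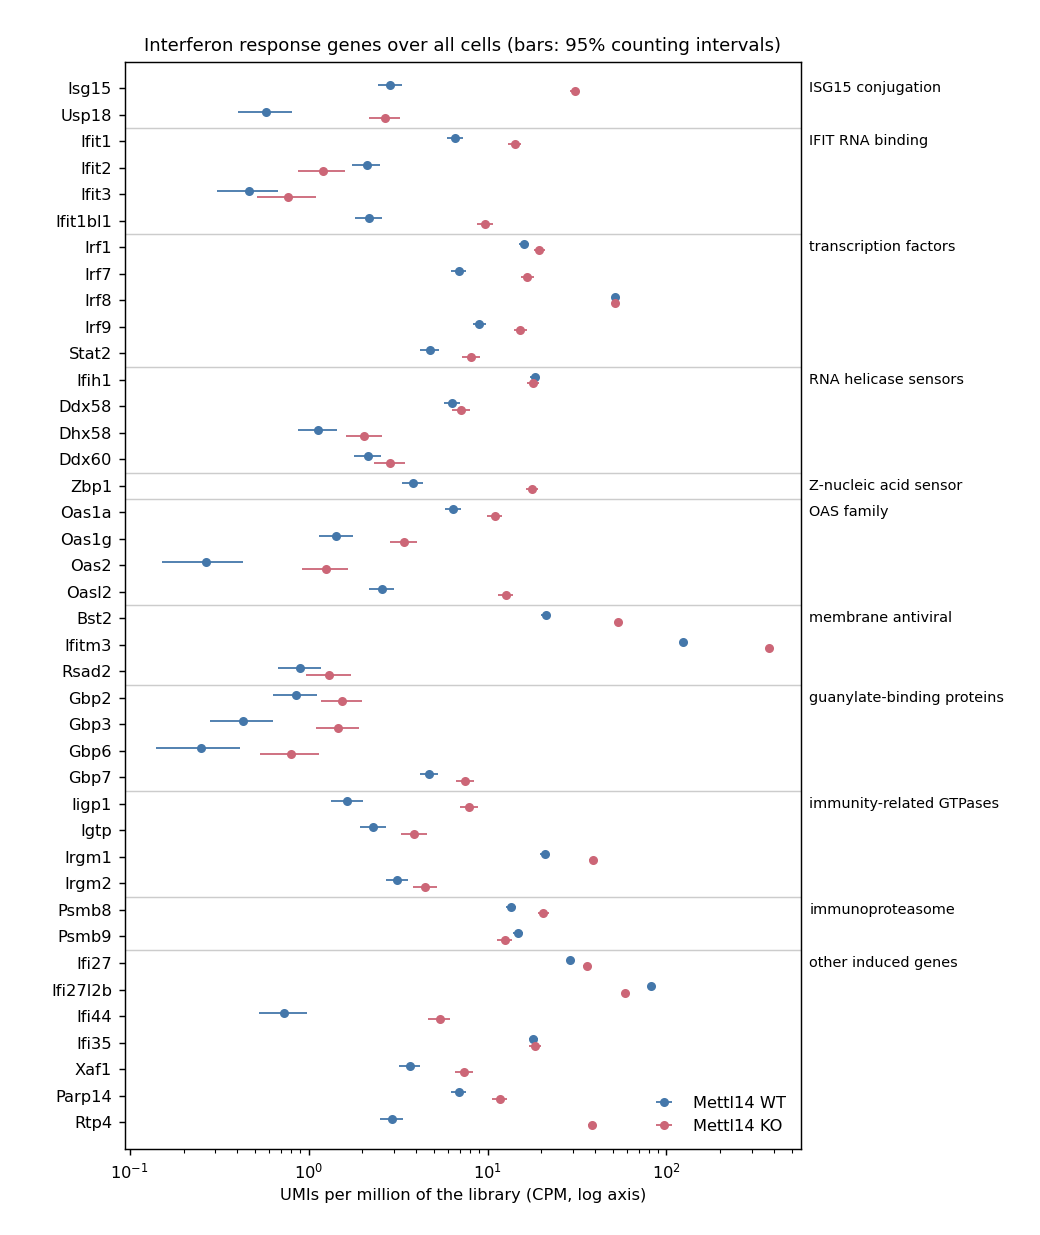
Level of each of the 40 members in the Mettl14 WT and Mettl14 KO libraries, in CPM on a log axis, grouped by role, with 95% Poisson counting intervals as bars. The KO points of Isg15 (30.8 CPM) and Rtp4 (38.2 CPM) stand far to the right of their WT points (2.86 and 2.91 CPM), whereas those of Irf8, Ifih1 and Ifi35 lie on top of each other and that of Ifit2 lies to the left.

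The genes of the ISG15 system were both higher in the KO library. Isg15 (chromosome 4, 156199424 to 156200818), the ubiquitin-like protein that is attached to other proteins in infected cells, had 172 UMIs in WT (2.86 CPM, 2.45 to 3.32) and 1158 in KO (30.8 CPM, 29.0 to 32.6). The ratio was 10.8-fold, a log2 ratio of 3.43 (3.20 to 3.67). Usp18, the protease that removes ISG15 and damps receptor signalling, had 35 UMIs in WT and 100 in KO (log2 ratio 2.19, 1.62 to 2.79).

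The IFIT genes encode a family of antiviral proteins, of which IFIT1 is known to bind RNA without the host's cap methylation, and the 4 members lie in the same stretch of chromosome 19 between positions 34550694 and 34650009. Ifit1bl1 was higher in KO (131 UMIs in WT, 365 in KO, log2 ratio 2.16, 1.86 to 2.46). Ifit1 was also higher (396 and 535 UMIs, log2 ratio 1.11, 0.92 to 1.30). Of their neighbours, Ifit3 was neither higher nor lower and Ifit2 was lower. Ifit3 had 28 UMIs in WT and 29 in KO, a 1.66-fold ratio whose interval reached equal levels (log2 ratio 0.73, −0.07 to 1.53). With equal weight for each compared cluster, Ifit3 was called higher. Ifit2 had 127 UMIs in WT (2.11 CPM) and 45 in KO (1.20 CPM), a log2 ratio of −0.82 (−1.34 to −0.32). It was no longer called when cells with immune markers were left out. The same held when each cell was thinned at random to 3000 UMIs, and with equal weight for each compared cluster. The IFIT genes are close copies of each other, so their counts could depend on how reads matching several copies were handled.

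Among the transcription factors, Irf7, the factor that amplifies interferon production, went from 417 UMIs in WT (6.93 CPM) to 629 in KO (16.7 CPM), a log2 ratio of 1.27 (1.09 to 1.45). Irf9 and Stat2, which encode subunits of the ISRE-binding complex, were higher by 0.76 (0.59 to 0.93) and 0.78 (0.54 to 1.01) on the log2 scale. Irf1, which responds mainly to type II interferon, had 961 and 734 UMIs (log2 ratio 0.29, 0.15 to 0.43), a difference under 1.5-fold. Irf8, best known from myeloid cells, had 3089 UMIs in WT and 1950 in KO and the same level relative to all UMIs (51.3 and 51.8 CPM, log2 ratio 0.01, −0.07 to 0.10).

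Of the RNA helicases and Zbp1, Dhx58 and Zbp1 were higher and Ifih1, Ddx58 and Ddx60 were neither. Zbp1, which recognises Z-form nucleic acids and can trigger cell death, had 230 UMIs in WT (3.82 CPM) and 666 in KO (17.7 CPM), a log2 ratio of 2.21 (1.99 to 2.43). Ifih1, which encodes MDA5, had 18.3 CPM in WT and 17.99 CPM in KO (log2 ratio −0.03, −0.17 to 0.11). Ddx58, which encodes RIG-I, had a log2 ratio of 0.17 (−0.06 to 0.40), and the helicase gene Ddx60 one of 0.41 (0.02 to 0.79). Dhx58, which encodes LGP2, was higher with 68 and 77 UMIs (log2 ratio 0.86, 0.37 to 1.35).

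All 4 measured members of the OAS family, enzymes and relatives that sense double-stranded RNA and activate RNase L, were higher in KO. Oasl2 had 155 UMIs in WT and 475 in KO (log2 ratio 2.29, 2.03 to 2.56). Oas2 had 16 and 47 UMIs (2.23, 1.39 to 3.15), Oas1g 86 and 128 (1.25, 0.85 to 1.66) and Oas1a 385 and 412 (0.78, 0.57 to 0.98). Oas1a and Oas1g are close copies.

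Of the membrane-bound antiviral proteins, Ifitm3 and Bst2 were higher with narrower intervals than the other members that were higher. Ifitm3 (chromosome 7, 141009586 to 141010770), which blocks the fusion of viruses in endosomes, had 7419 UMIs in WT (123 CPM) and 14044 in KO (373 CPM), a 3.03-fold ratio (log2 1.60, 1.56 to 1.64). Bst2, or tetherin, which holds budding viruses at the cell surface, had 1270 and 2017 UMIs (log2 ratio 1.35, 1.24 to 1.45). Rsad2, or viperin, an enzyme that makes a chain-terminating nucleotide, had 54 and 49 UMIs (0.54, −0.05 to 1.12).

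The guanylate-binding proteins and immunity-related GTPases attack the vacuoles of intracellular pathogens and respond mainly to type II interferon. Iigp1 was the most different of these (99 UMIs in WT, 298 in KO, log2 ratio 2.27, 1.93 to 2.61), and 5 cells held 52 of its WT UMIs. In male cells the log2 ratio was below 0 for Iigp1 (−1.55), Gbp2 (−0.24), Gbp7 (−0.27) and Igtp (−0.36). Gbp3 had 26 and 55 UMIs (1.76, 1.06 to 2.49), Gbp2 51 and 58 (0.86, 0.30 to 1.44) and Gbp7 285 and 283 (0.67, 0.43 to 0.91), and these 3 genes lie close together on chromosome 3. Irgm1 had 1257 UMIs in WT (20.9 CPM) and 1467 in KO (39.0 CPM), a log2 ratio of 0.90 (0.79 to 1.01). Igtp was higher by 0.76 (0.41 to 1.11), while Irgm2, which overlaps it on the same strand in the annotation, was not past 1.5-fold (0.52, 0.22 to 0.83). The counts of this overlapping pair could depend on how reads in the shared stretch were handled. The immunoproteasome subunits, which cut peptides for MHC class I, went apart: Psmb8 was just past the limit (log2 ratio 0.60, 0.46 to 0.75), which it no longer passed when mitochondrial, ribosomal-protein and haemoglobin genes were left out of the scaling, and Psmb9 was below 0 without passing it (−0.24, −0.41 to −0.08).

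The remaining members held the largest ratio. Rtp4 (chromosome 16, 23520291 to 23614222), a receptor transporter that also restrains antiviral signalling, had 175 UMIs in WT (2.91 CPM, 2.49 to 3.37) and 1439 in KO (38.2 CPM, 36.3 to 40.3). The ratio was 13.2-fold (log2 3.72, 3.49 to 3.95). Ifi44 had 44 and 203 UMIs (log2 ratio 2.88, 2.41 to 3.39), the cell-death gene Xaf1 221 and 278 (1.01, 0.75 to 1.27) and the ADP-ribosyltransferase gene Parp14 416 and 439 (0.76, 0.56 to 0.95). Ifi27, a mitochondrial protein, had 29.1 CPM in WT and 35.9 CPM in KO (0.30, 0.20 to 0.41), and Ifi35 18.1 and 18.4 CPM (0.03, −0.11 to 0.17). Ifi27l2b, a relative of Ifi27 near it on chromosome 12, had 81.6 CPM in WT and 58.9 CPM in KO. Its log2 ratio of −0.47 (−0.54 to −0.40) stayed under 1.5-fold. It was called lower in female cells, with cells thinned to 3000 UMIs and with equal weight for each compared cluster. Just inside the limit were Psmb8 (1.52-fold) and Gbp7 (1.59-fold), and Rsad2 (1.45-fold) and Irgm2 (1.44-fold) were just outside it.

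Within the clusters the same direction prevailed, but not to the same extent. A member counted as measured in a cluster with at least 20 UMIs. In cluster 2, goblet-like, 24 of 34 measured members were higher and 0 lower, against 14.6% and 16.4% of measured genes. In cluster 3, like cycling cells, 21 of 34 were higher and 1 lower (17.6% and 12.1% of genes). In cluster 0, 18 of 32 were higher and 1 lower (20.1% and 13.2%), and in cluster 1, goblet-like, 18 of 35 and 1 (13.4% and 17.1%). In cluster 5, enteroendocrine-like, 6 of 15 were higher and 1 lower (12.8% and 9.90%). Cluster 4, colonocyte-like, had 11 of 35 higher and 1 lower (15.7% and 13.0%). The median log2 ratio of the measured members was 1.35 in cluster 2, 1.03 in cluster 3, 0.70 in cluster 0, 0.68 in cluster 1, 0.60 in cluster 5 and 0.40 in cluster 4.

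**Figure D2:**
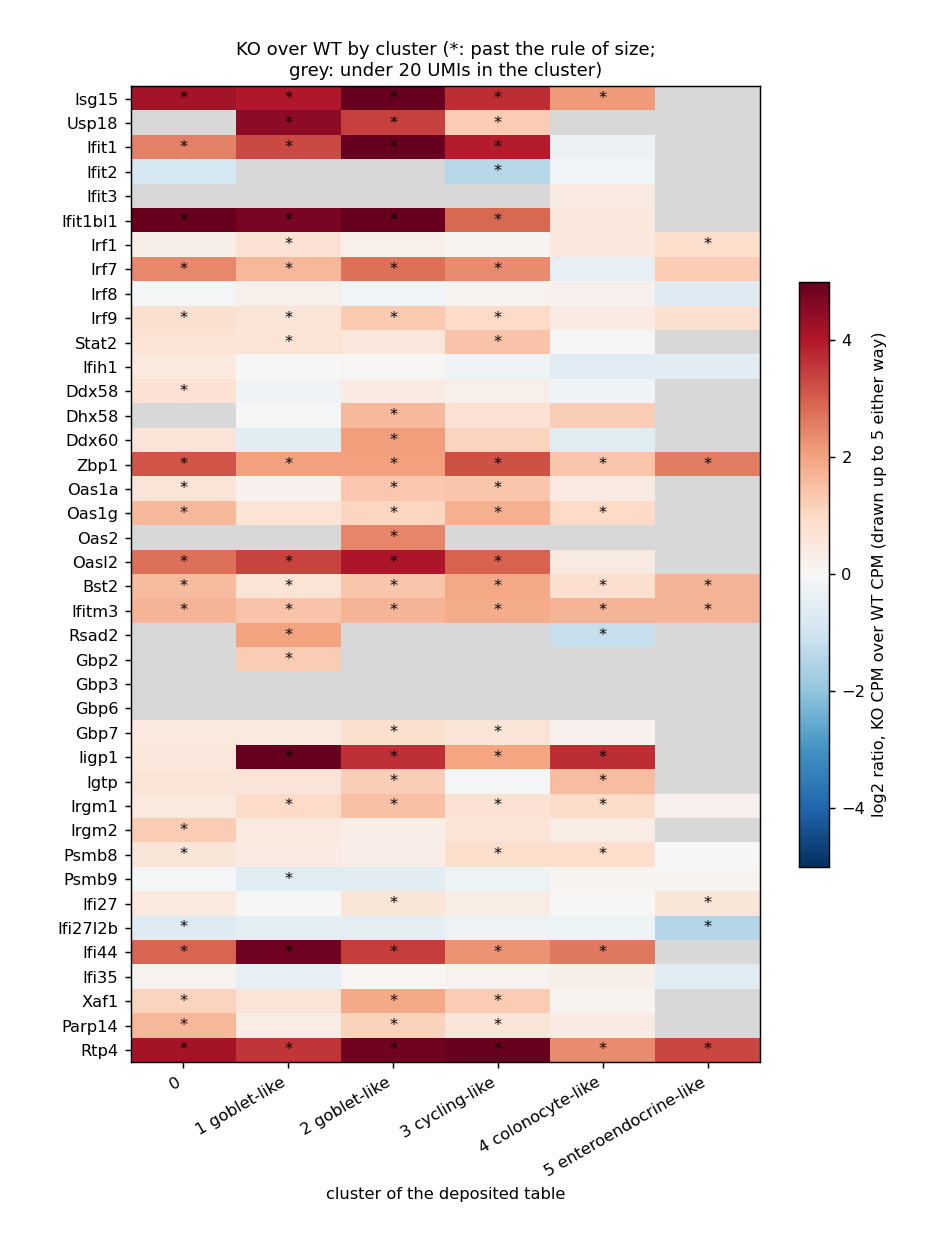
Log2 ratio of KO over WT for each member (rows) in the 6 compared clusters (columns), red where KO was above WT and blue where below, with the colour held at 5 in either direction, and at its end for Iigp1 in cluster 1, which had no WT UMI. Stars mark members called higher or lower, and grey marks fewer than 20 UMIs. The rows of Rtp4, Zbp1, Bst2 and Ifitm3 carry a star in every column, and the rows of Ifit1, Ifit1bl1, Irf7 and Oasl2 turn pale in the column of cluster 4.

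The members higher in all 6 compared clusters were 4: Rtp4, Zbp1, Bst2 and Ifitm3. Isg15 and Ifi44 were higher in the 5 clusters in which they were measured. The ratio of Ifitm3 was nearly the same everywhere, between 1.44 in cluster 1 and 1.85 in cluster 3 on the log2 scale. Rtp4 ranged from 2.36 in cluster 4 (81 UMIs in WT, 210 in KO) to 5.10 in cluster 3 (18 and 375). Of the members measured in all 6 clusters, Irf8, Ifih1, Ifi35, Ifi27l2b and Psmb9 were higher in none. Ifit2 was higher in none of the 3 clusters in which it was measured, nor Ifit3 in the 1 it was measured in, and Gbp3 and Gbp6 were measured in none.

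The genes that led each cluster were largely the same few. In cluster 0, Ifit1bl1 (2 UMIs in WT, 53 in KO, log2 ratio 5.60, 3.68 to 8.68), Rtp4 (4.18), Isg15 (4.16), Zbp1 (3.16) and Oasl2 (2.75) led, and Ifi27l2b was lower (102 and 64.9 CPM, −0.66, −0.81 to −0.50). In cluster 1, Iigp1 led with 0 UMIs in WT and 55 in KO, at least 18.5-fold higher when WT is set to 3 counts, before Ifit1bl1 (4.75), Isg15 (4.0), Rtp4 (3.57) and Oasl2 (3.39). Psmb9 was lower there (−0.59, −1.07 to −0.13). Of the 55 KO UMIs of Iigp1 in cluster 1, 11 lay in cells taken as female and 5 in cells taken as male. The others lay in cells taken as neither. In cluster 2, Isg15 (10 and 274 UMIs, 5.62, 4.72 to 6.70) led with Ifit1bl1 (6.48, 4.58 to 9.54), Ifit1 (5.22), Rtp4 (4.83) and Oasl2 (4.05).

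Rtp4, Isg15 (3.68), Ifit1 (3.94), Zbp1 (3.18) and Oasl2 (2.96) led cluster 3, where Ifit2 was lower (35 UMIs in WT, 8 in KO, −1.41, −2.73 to −0.27). In cluster 5, Rtp4 (7 and 63 UMIs, 3.32, 2.20 to 4.69), Ifitm3 (1.71), Zbp1 (2.54), Bst2 (1.70) and Ifi27 (0.60) were the leading genes, and Ifi27l2b was lower (−1.45, −2.20 to −0.76). Cluster 4 was led by Iigp1 (5 and 33 UMIs, 3.71, 2.34 to 5.43), of whose KO UMIs 27 lay in 2 cells and 29 in cells that held Xist as well as Y-linked UMIs. Next came Rtp4, Isg15 (77 and 169 UMIs, 2.12, 1.73 to 2.53), Ifitm3 (1.70) and Ifi44 (2.64), with Rsad2 lower (40 UMIs in WT, 9 in KO, −1.16, −2.39 to −0.10).

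Cluster 4 differed from the other clusters mainly through its level in the WT library. Ifit1 had 35.1 CPM in WT cells of cluster 4 (344 UMIs) and between 0.416 and 1.58 CPM in WT cells of the other 5 compared clusters. In the KO library it had 28.3 CPM in cluster 4 (140 UMIs), 33.4 CPM in cluster 2 and between 6.38 and 9.64 CPM in the others. The log2 ratio was −0.31 (−0.60 to −0.02) in cluster 4 and 5.22 (4.26 to 6.37) in cluster 2. Irf7 behaved alike, with 25.0 CPM in WT and 19.0 CPM in KO in cluster 4 (−0.39, −0.75 to −0.05), and with 4.79 and 32.6 CPM in cluster 2 (2.77, 2.30 to 3.26).

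Where the UMIs of a member lay shows the same. Cluster 4 held 15.7% of the WT cells and 16.3% of all WT UMIs, yet 88.5% of the WT library's Ifit1bl1 UMIs, 86.9% of its Ifit1 UMIs, 75% of Ifit3, 74.1% of Rsad2, 58.8% of Irf7 and 56.1% of Oasl2. It also held 46.3% of Rtp4 and 44.8% of Isg15 UMIs. In the KO library, where cluster 4 held 13.1% of all UMIs, the same shares were 23.0% for Ifit1bl1, 26.2% for Ifit1, 48.3% for Ifit3, 18.4% for Rsad2, 14.9% for Irf7, 12.6% for Oasl2 and 14.6% for both Rtp4 and Isg15. Cluster 4 held 18.2% of Irf8 and 15.1% of Ifitm3 UMIs in WT, and 16.7% and 13.0% in KO. The largest shares of Ifitm3 lay in cluster 3 (34.3% in WT, 39.6% in KO) and cluster 0 (30.3% and 28.3%). Of all UMIs, cluster 3 held 27.9% in WT and 27.1% in KO, and cluster 0 held 21.6% and 18.9%.

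**Figure D3:**
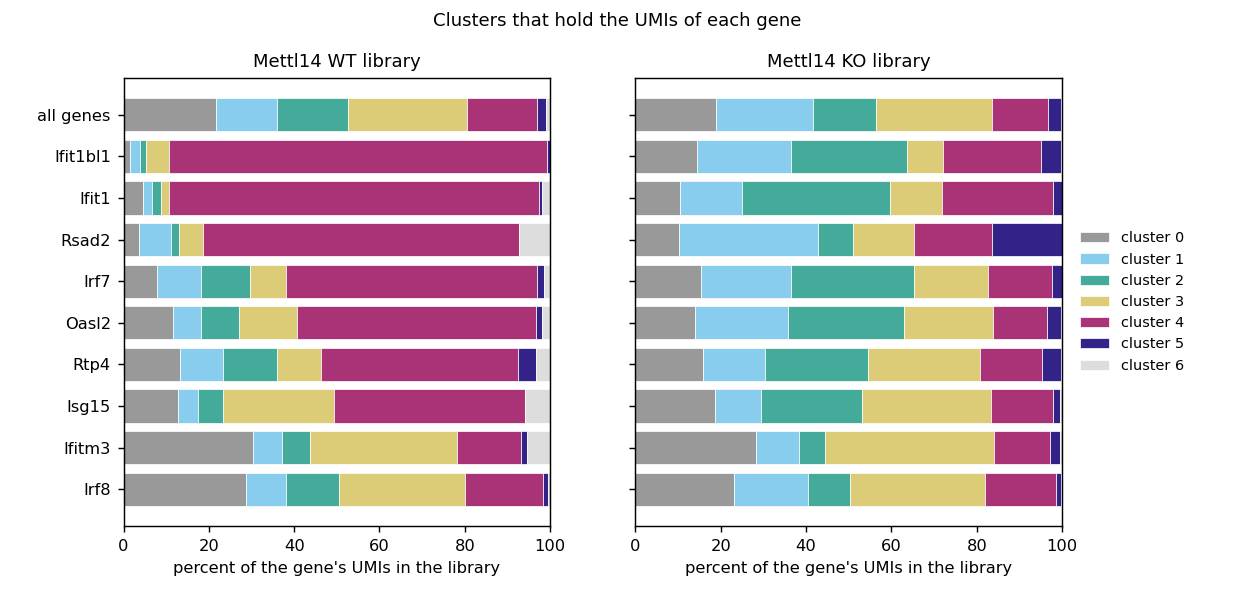
Share of each gene's UMIs that lay in each of the 7 clusters, in the WT library (left) and the KO library (right), with all genes in the top bar. In WT, cluster 4 takes most of the bars of Ifit1bl1, Ifit1, Rsad2 and Irf7, and in KO it takes no more than 26.2% of any of the 4.

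With cluster 4 left out, an alternative chosen after its values were seen, 27 members were higher and 1 lower, and the ratios of these genes grew. The log2 ratio of Ifit1 was 3.55 (3.13 to 3.996) against 1.11 over all cells, that of Ifit1bl1 4.85 (4.11 to 5.71) against 2.16, and that of Irf7 2.26 (2.01 to 2.52) against 1.27. Isg15 reached 4.0 (3.70 to 4.32), Rtp4 4.33 (4.03 to 4.65) and Oasl2 3.23 (2.86 to 3.63). Rsad2, neither higher nor lower over all cells, had 14 UMIs in WT and 40 in KO outside cluster 4 (2.14, 1.23 to 3.13). Ifit2 stayed lower at −1.38 (−2.27 to −0.57), with 64 and 16 UMIs.

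In the WT library few cells carried these transcripts. Cells were ranked by their Ifit1 UMIs, and the first 14 of them held 204 of the 396 Ifit1 UMIs, between 8 and 39 each. Of the 14, 13 lay in cluster 4. The same 14 cells held 52.7% of the library's Ifit1bl1 UMIs, 53.6% of Ifit3, 50% of Rsad2, 34.3% of Isg15, 34.6% of Ifit2 and 10.1% of Irf7. They held none of the 99 Iigp1 UMIs and 0.377% of the Ifitm3 UMIs. As 5 of them were called female and 5 male, they did not come from a single animal.

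These 14 cells had a median of 7313 UMIs and of 15.1% mitochondrial UMIs, against 12288.5 UMIs and 13.3% in WT cells of cluster 4. Of 9 listed colonocyte markers, 5 were looked up in the 14 cells. Of these 5, 4 stood above and 1 below the other WT cells of cluster 4. Aqp8, a water channel, stood at 904 CPM in them and at 184 CPM in the other WT cells of cluster 4, Cyp2c55 at 1175 and 129 CPM, and Krt20, a keratin of surface cells, at 198 and 28.8 CPM. Guca2a stood at 536 and 269 CPM, and Car1, a carbonic anhydrase, at 73.5 and 109.7 CPM. Muc2, the goblet cell mucin, stood at 44.1 and 406 CPM. Ptprc, the leukocyte marker CD45, had 2 UMIs in the 14 cells (14.7 CPM) and stood at 4.54 CPM in the other WT cells of cluster 4. Cd3e had 0 UMIs in the 14 cells. At least 2 UMIs of immune markers were held by 4 of the 14, and by 8.94% of all WT cells of cluster 4. In the KO library, 43 cells were needed to reach 50% of the Ifit1 UMIs, and they came from clusters 2 (17 cells), 4 (13), 1 (5), 3 (5) and 0 (3). For Isg15 the numbers were 11 cells in WT and 59 in KO.

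To compare cells at equal depth, each cell was thinned to 3000 UMIs, which left 4038 WT and 3556 KO cells. A UMI of at least 5 of the 40 members was then found in 82 WT cells (2.03%, 1.62 to 2.51) and in 238 KO cells (6.69%, 5.89 to 7.56). Cells without any member made up 28.7% in WT and 14.7% in KO. In cluster 2 the share with at least 5 members was 1.02% in WT and 11.5% in KO (8.82 to 14.6). In cluster 4 it was 7.04% (5.18 to 9.31) and 8.96% (6.56 to 11.9), and these intervals overlap. Cells with at least 8 members numbered 21 in WT, of which 15 were in cluster 4, and 57 in KO, of which 8 were in cluster 4 and 19 in cluster 2.

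**Figure D4:**
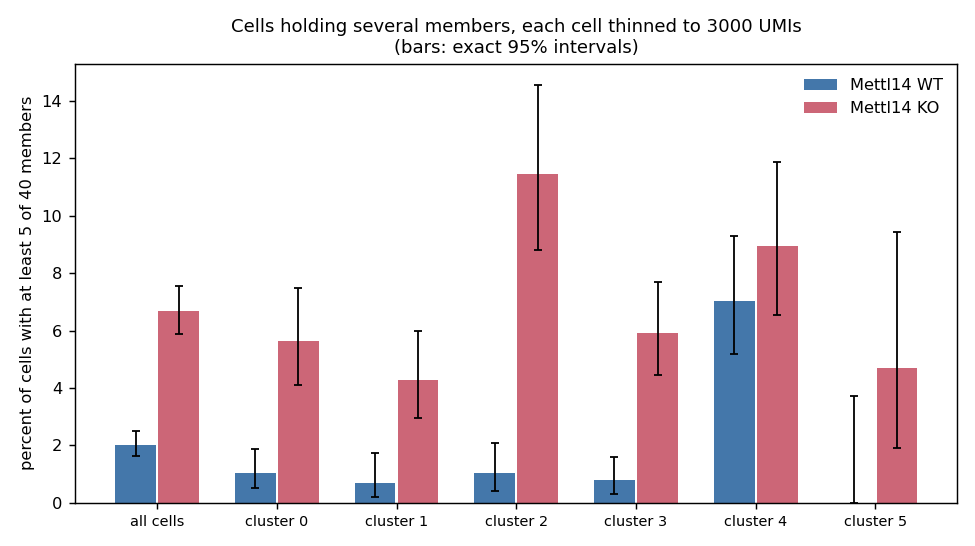
Percent of cells with a UMI of at least 5 of the 40 members after thinning to 3000 UMIs per cell, over all cells and in each compared cluster, with exact 95% intervals as bars. The KO bar stands above the WT bar in each of them, most in cluster 2 (1.02% and 11.5%), and the intervals overlap in clusters 4 and 5.

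For single members the share of thinned cells with a UMI was 0.966% in WT and 9.56% in KO for Rtp4, 0.619% and 5.46% for Isg15, 1.06% and 4.75% for Zbp1, 5.82% and 14.2% for Bst2 and 23.8% and 48.3% for Ifitm3. For Irf8 it was 14.5% and 13.6%, and for Ifi27l2b 21.0% and 15.0%. Without thinning the share for Rtp4 was 3.35% and 23.9%, and for Ifitm3 46.6% and 67.5%. In 21 of the 39 measured members the KO share of thinned cells lay above the WT share with intervals apart, against 21.4% of measured genes, and in 2 below, against 19.8%. Without thinning, with a higher median of UMIs per cell in WT, 19 lay above (12.9% of measured genes) and 6 below (60.3%). No cluster is known to lack these genes, so free RNA was not measured against one.

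Members were also detected together with Ifit1 in some clusters. In cluster 4 of the WT library, the 42 thinned cells with an Ifit1 UMI held on average 8.50 UMIs of the other members, and the 597 without held 1.74. In cluster 2 of the KO library, 47 cells had an Ifit1 UMI and held 6.79 UMIs of the other members, against 2.26 in those without. Cells of cluster 4 in the KO library were alike, with 8.09 and 2.89. Among the WT cells of cluster 4, Irf7 was found in 38.1% of those with Ifit1 and in 4.19% of those without, and Ifi27l2b in 45.2% and 25.5%. Ifitm3 was found in 11.9% (3.98 to 25.6) and 22.3% (19.0 to 25.8), intervals that overlap. Of the colonocyte markers not looked up in the 14 cells, Car4 was found in 26.2% and 1.84%, and Alpi in 26.2% and 2.35%. Slc26a3 was found in 2.38% and 1.01%, and Slc37a2 in 0% (0 to 8.41) and 2.18% (1.16 to 3.69). Of the immune markers, Ptprc was found in 9.52% (2.66 to 22.6) and 1.01% (0.370 to 2.17), intervals that lie apart. C1qa was found in 2.38% and 2.18%, and Cd3e in 0% of both. These are descriptions within 1 library each.

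Both libraries could be divided by sex. Female was taken to mean 3 or more Xist UMIs without a Y-linked UMI (1689 cells in WT, 1696 in KO), and male a Y-linked UMI without Xist (1540 and 996 cells). In female cells 25 of 36 measured members were higher and 2 lower, against 16.9% and 15.5% of measured genes. In male cells 16 of 32 were higher and 2 lower, against 14.6% and 13.2%. The median log2 ratio was 0.99 in female and 0.59 in male cells. How many animals of each sex entered a library is not in the labels, so sex and animal cannot be told apart.

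Isg15 had 39 UMIs in female WT cells and 554 in female KO cells (log2 ratio 4.24, 3.77 to 4.75), and 110 and 214 in male cells (2.14, 1.80 to 2.48). The gap arose mostly in WT, where male cells stood at 5.08 CPM and female cells at 1.65 CPM. Rtp4 (4.14 in female, 3.39 in male cells), Zbp1 (2.39 and 2.09), Ifitm3 (1.75 and 1.40) and Ifit1 (1.06 and 1.04) were higher in both.

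Of the GTPases, Irgm1 was higher in both sexes (0.94 in female, 0.70 in male cells), and Irgm2 stood at 0.84 (0.34 to 1.34) and 0.31 (−0.28 to 0.88). Iigp1 was higher in female and lower in male cells. It had 32 UMIs in female WT cells and 177 in female KO cells (2.88, 2.33 to 3.47), and 53 in male WT cells and 8 in male KO cells (−1.55, −2.83 to −0.47). Gbp7 stood at a log2 ratio of 1.02 (0.63 to 1.43) for female cells and at −0.27 (−0.80 to 0.24) for male cells, and Igtp of 1.05 (0.48 to 1.64) and −0.36 (−1.13 to 0.36). Gbp2, Gbp7 and Igtp also lost the call over all cells when cells with Xist as well as Y-linked UMIs were left out. Of the 53 Iigp1 UMIs in male WT cells, 38 lay in cluster 3, as did 38 of the 110 Isg15 UMIs, whereas female WT cells of that cluster held 0 Iigp1 and 3 Isg15 UMIs. Within cluster 4, Ifit1 had 145 UMIs in female WT and 55 in female KO cells (−0.86, −1.34 to −0.40), and 81 and 26 in male cells (−0.01, −0.71 to 0.64).

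**Figure D5:**
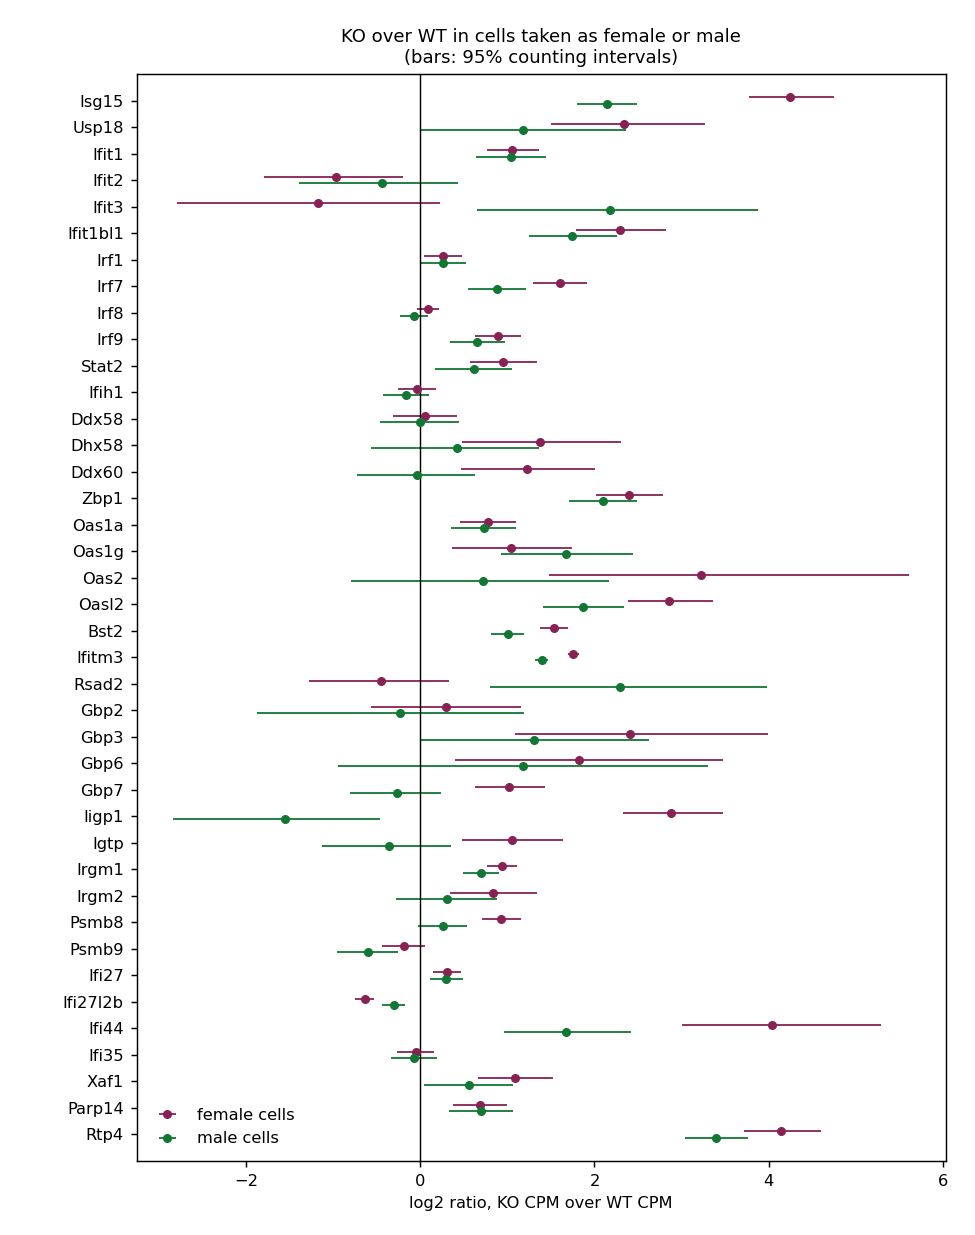
Log2 ratio of KO over WT for each member in cells taken as female and as male, with 95% counting intervals as bars and a line at equal levels. For Isg15, Rtp4, Zbp1 and Ifitm3 both points lie to the right of the line, and for Iigp1 the female point lies at 2.88 and the male point at −1.55.

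Other genes of the pathway were taken from a list of 107 names without any member, also drawn up with earlier results of these data known. Of the 107, 92 were rows of the matrix and 78 were measured. Of these 28 were higher in KO and 4 lower, against 16.7% and 16.2% of all measured genes, and their median log2 ratio was 0.39. Of the 9 interferon genes listed, Ifng was a row of the matrix and had 0 UMIs in both libraries, which allows up to 0.0498 CPM in WT and 0.0797 CPM in KO (3 counts). Among 6 receptor genes, Ifnar2 was higher (430 UMIs in WT, 462 in KO, log2 ratio 0.78, 0.59 to 0.97). Ifngr1 (0.55), Ifnar1 (0.51), Ifnlr1, the type III interferon receptor (0.28, −0.14 to 0.69), Il10rb (0.01) and Ifngr2 (−0.00) were neither. Of the kinases and STATs, Jak1 (0.02), Stat3 (0.21), Jak2 (−0.19) and Tyk2 (−0.25) were neither.

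In the sensing list, 6 of 16 measured genes were higher and 0 lower, with Tmem173, which encodes STING (1.10, 0.92 to 1.27), the double-stranded RNA receptor Tlr3 (1.03), the kinase gene Eif2ak2, which encodes PKR (0.83), and the adaptor Traf3 (0.81) leading. Of 8 negative regulators 3 were higher and 1 lower. Socs1, which blocks Janus kinases, had 168 UMIs in WT and 422 in KO (2.01, 1.75 to 2.27), Trim30a had a log2 ratio of 1.30 and Socs3 of 1.12. Irf2, a repressor at many interferon-responsive promoters, had 4618 and 1800 UMIs (−0.68, −0.76 to −0.60). Of 43 measured other interferon-stimulated genes, 18 were higher and 3 lower, led by Gbp4 (8 and 123 UMIs, 4.62, 3.60 to 5.86), Gbp8 (9 and 119 UMIs, 4.40), Apol9b (10 and 56 UMIs, 3.16) and Oasl1 (104 and 425 UMIs, 2.71).

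Markers of other cell types that the sort could hold also differed between the libraries. Of 10 macrophage and dendritic cell markers, 7 were measured, of which C1qa, C1qb, C1qc, Csf1r and Cd74 were higher and 0 lower. Their sum was 51.6 to 163 CPM over the 6 compared clusters in WT and 99.1 to 342 CPM in KO. In cluster 0 it was 74.4 CPM in WT and 274 CPM in KO, and in cluster 1 72.4 and 147 CPM. In cluster 2 it was 99.6 and 107 CPM, and in cluster 3 51.6 and 99.1 CPM. In cluster 4 it was 128 and 167 CPM, and in cluster 5 163 and 342 CPM. Flt3 had 0 UMIs in KO and Siglech 1. T and innate lymphoid markers summed to 3.41 CPM in WT and 1.22 CPM in KO, with Cd8a and Gzma at 0 in KO and 2 and 4 UMIs of Cd3e in WT and KO. Over all cells the neutrophil markers S100a8, S100a9 and Retnlg were lower in KO, as were 7 of 7 measured stromal markers. Cluster 6, which was not compared, held 2787 CPM of neutrophil markers in WT and 0 in KO. In each of the 6 compared clusters the neutrophil sum was higher in KO. It was 0.599 to 1.94 CPM in WT and 1.47 to 26.3 CPM in KO. Cells with at least 2 UMIs of immune markers made up 7.84% of WT and 7.14% of KO cells. Without them, in an alternative chosen after the data were seen that counted neither Kit nor Rac2, 26 members were higher and 0 lower. The part of macrophage RNA in the members' levels was otherwise not tested.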

How the data were processed

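The 10x libraries were processed by the submitters with bcl2fastq and Cell Ranger against mm10, per the submitters' processing notes, which give no versions. The authors' deposited files are a matrix of whole-number UMI counts per gene and cell and a table with each cell's condition and cluster, and no per-cell doublet call. Counts were summed per library, or per cluster and library, with cells taken to their group through that table. Ratios are KO over WT of UMIs per 1000000, with exact conditional binomial 95% intervals; levels have Poisson intervals and shares of cells exact Clopper-Pearson intervals. Intervals and limits cover counting error only. No test across libraries was possible with 1 library per genotype. A count of 0 in WT was set to 3 counts for a lower bound.

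The members and lists were chosen with earlier results of these data known. All 40 members may be named. Of each pathway list, up to 4 genes with the interval bound farthest from 0 are named, with the ligands, receptors, kinases and STATs (some results are not reported here), and in each cluster up to 5 members with the highest and up to 5 with the lowest ratio by the interval bound nearest to 0. Clusters were named from fixed marker lists. No doublet caller was run, and cells in which Xist and a Y-linked gene were found together (437 in WT, 304 in KO) were left out in an alternative. Positions and overlaps come from the GENCODE annotation of GRCm38 and promoter windows from RefSeq. Python 3.11.15, numpy 2.4.6, scipy 1.17.1, pandas 2.3.3, matplotlib 3.10.9, R 4.3.3 and edgeR 4.0.16 (TMM factors in an alternative) were used. The interval functions and the rule of size were tested on simulated data. Alternatives changed the scaling, the count limit, the fold, the cells kept, the depth per cell and the weight of clusters.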

Additional observations from a re-analysis of the deposited data

Results flagged for a closer look

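For 4 members the ratio of KO over WT had opposite signs in 2 clusters with intervals on either side of equal levels, a difference that was not tested. Ifit1 had a log2 ratio of 5.22 (4.26 to 6.37) in cluster 2 and of −0.31 (−0.60 to −0.02) in cluster 4. Irf7 had 2.77 (2.30 to 3.26) in cluster 2 and −0.39 (−0.75 to −0.05) in cluster 4. Ifih1 had 0.48 (0.15 to 0.82) in cluster 0, with 174 UMIs in WT and 133 in KO, and −0.57 (−0.94 to −0.21) in cluster 4, with 250 and 85 UMIs. Rsad2 had 2.01 (0.38 to 4.05) in cluster 1, from 4 and 16 UMIs, and −1.16 (−2.39 to −0.10) in cluster 4, from 40 and 9 UMIs.

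Iigp1 had a log2 ratio of 2.88 (2.33 to 3.47) in cells taken as female and of −1.55 (−2.83 to −0.47) in cells taken as male, and this difference was not tested either. In the male cells it rests on 53 WT and 8 KO UMIs, and 5 WT cells held 52 of the 99 Iigp1 UMIs of the WT library.

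Cluster 6, which entered no comparison, held 6 WT and 5 KO UMIs of Rtp4, a log2 ratio of 2.15 (0.10 to 4.12) in 117 WT and 31 KO cells.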

How the results depend on the processing

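The count of members higher in the KO library was 26 and lay between 21 and 27 under the alternatives, except for 16 at a fold of at least 2, 16 in male cells and 17 with cells thinned to 3000 UMIs. The count of members lower was 1, and became 0 with at least 200 UMIs, at a fold of at least 2, without immune marker cells (with or without Kit and Rac2 counted) and in cells with at most 10% mitochondrial UMIs. It was 2 in female cells (Ifit2 and Ifi27l2b) and 2 in male cells (Iigp1 and Psmb9). With cells thinned to 3000 UMIs, and with equal weight for each compared cluster, it was 1, but the lower member was Ifi27l2b and not Ifit2. The median log2 ratio was 1.02 in cells with at most 10% mitochondrial UMIs. Leaving out the enzyme-rich WT cells kept 26 members higher and 1 lower.

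Of the pathway genes, 16 were higher at a fold of at least 2, 18 in male cells and 14 with thinned cells. Those lower numbered 2 with at least 200 UMIs, without cells holding Xist and Y-linked UMIs, in cells with at most 10% mitochondrial UMIs and with equal weight for each cluster, 0 at a fold of at least 2 and 1 in male cells. In the clusters, the count of members lower became 0 in cluster 0 without immune marker cells, 0 in cluster 3 with at least 50 UMIs, and in cluster 4 it became 2 when scaled without mitochondrial, ribosomal-protein and haemoglobin genes and 0 without immune marker cells (either list) or with at least 50 UMIs. With at least 50 UMIs, 7 members were higher in cluster 4.

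Of single members, 4 turned direction in male cells: Iigp1 (−1.55), Igtp (−0.36), Gbp7 (−0.27) and Gbp2 (−0.24). The 27 members called higher or lower kept their sign in the other 11 settings run on single members. Thinning to 3000 UMIs ended the higher call of Dhx58, Gbp2, Gbp3, Gbp7, Ifit1, Oas1g, Oas2, Psmb8, Stat2 and Usp18, and the lower call of Ifit2. Irgm2 was then called higher and Ifi27l2b lower. The members with a higher share of cells in KO numbered 22 at 5000 UMIs per cell (23.8% of measured genes) and 19 without thinning (12.9%), against 21 at 3000 (21.4%). No paired analysis was possible because each genotype has 1 library. Without the limit of 50 UMIs, Gbp6 was also higher (log2 ratio 1.68, 0.74 to 2.68).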

Other observations

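Cluster 0 of the KO library held 186 thinned cells with a UMI of Ccl20 or Spib, genes chosen after their values were seen. These cells held on average 2.48 UMIs of the 40 members, and the 597 cells with neither gene held 3.69. Isg15 was found in 2.15% of the former and 6.37% of the latter, Rtp4 in 4.84% and 9.21%, and Ifitm3 in 47.8% and 66.3%. Bst2 was found in 13.98% and 13.2%. In cluster 0 of the WT library, 35 thinned cells had a UMI of Ccl20 or Spib and held 1.66 UMIs of the members on average. The 1019 WT cells with neither gene held 1.65.

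The ranked cells differed for Iigp1. The 15 KO cells with the most Iigp1 UMIs held 154 of the library's 298, between 6 and 14 each, and 9 of them were called female and 0 male.

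Counted per cluster, the summed level of the members other than Ifitm3 was 353 CPM in WT and 767 CPM in KO in cluster 2, and 530 and 661 CPM in cluster 4. In cluster 6 it was 583 and 560 CPM.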
